A study of Mus musculus with 6 samples.

Results

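The comparison described here set the 2 infarct libraries labelled Card9 KO MI against the 2 infarct libraries labelled WT MI. These are 4 of the 6 RNA-sequencing libraries of the study, and all 4 were used. The hearts came from 12-week-old male mice and were taken 3 days after myocardial infarction (MI), which was made by ligating the left anterior descending coronary artery. The Card9 KO line was kept on a C57BL/6 background and carried a targeted deletion of Card9 with no restriction to a cell type stated, whereas the WT controls were littermates and C57BL/6 mice. The other 2 libraries were WT sham, from wild-type mice of the same sex and age that had the operation without a ligature. Total RNA was taken from the tissue below the ligature, which is a mixture of surviving muscle, infiltrating blood cells, fibroblasts and vessels. The labels do not say whether the 2 libraries of a group came from separate mice, so the p-values below measure the spread between libraries, which may be technical. Sham-operated Card9 KO hearts were not analysed here. A genotype difference that was present without infarction and one that followed infarction therefore cannot be told apart.

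CARD9 is an adaptor protein of myeloid cells. It couples C-type lectin receptors, through the kinase SYK and protein kinase C delta, to BCL10 and MALT1 and so to NF-kB and the genes of acute inflammation. In an infarct, neutrophils arrive first, monocytes follow and become macrophages that clear dead muscle and present antigen, and fibroblasts then divide and turn into contractile, collagen-secreting cells that build the scar. At the time sampled these phases overlap, so the differences below are given by the cell types and pathways to which the genes belong.

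The values are FPKM, fragment counts scaled by transcript length and by the mapped fragments of the library, and a gene that a library did not list was taken as 0. From the steps between low FPKM values the depth was estimated at 3910000 to 4290000 fragments in the 4 infarct libraries and 3018000 to 3168000 in the sham libraries, and each infarct library listed 15572 to 15852 genes. A count of 3 fragments on a transcript of 2 kilobases corresponds to 0.350 to 0.384 FPKM in the infarct libraries, so levels under about that value rest on fewer than 3 fragments. The replicates of each group correlated at r = 0.980 to 0.981 across genes, which are not independent replicates. Differences are given on the log2(FPKM + 1) scale as Card9 KO MI minus WT MI, with the standard error of the limma fit, and this scale understates the change of genes with low FPKM.

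Card9 itself was not reduced in the libraries labelled Card9 KO. It was listed at 3.39 and 5.08 FPKM in the WT MI libraries, at 9.85 and 6.94 FPKM in the KO-labelled libraries and at 0.99 and 1.03 FPKM in the WT sham libraries. Both KO-labelled libraries lay above both WT MI libraries, with a difference of 0.85 ± 0.23 that did not pass the limma test (adjusted p = 0.112, Benjamini-Hochberg). The gene spans mm9 chr2:26207696-26216438, minus strand, and which of its exons the deletion removed, and which exons the fragments came from, was not analysed here. The level of the targeted gene therefore does not bear out the label, which a value over the whole gene cannot decide. These are called the KO-labelled libraries throughout. The general macrophage markers, which mark the cells known to express Card9 in the infarct, moved the same way: 15 of 16 lay above 0 and their summed FPKM was 1694 and 2134 in the WT MI libraries against 3370 and 2482 in the KO-labelled ones. Their part in the Card9 value was not tested. Lcn2, which encodes the iron-siderophore binding protein lipocalin-2, was far lower in the KO-labelled libraries, at 6.98 and 7.27 FPKM against 269 and 204 FPKM (-4.86 ± 0.20, limma adjusted p = 0.000201).

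Of 13120 genes tested, 107 rose and 77 fell in the KO-labelled libraries relative to WT MI at an adjusted p below 0.05 (limma, Benjamini-Hochberg), which is 0.816% and 0.587% of all genes tested and 1.4% in either direction. All 184 had libraries that did not overlap between the groups, but so did 52.7% of all genes tested. Among all genes tested, 30.8% did not overlap on the higher side and 21.9% on the lower side. The rises had a median size of 1.06 and reached 3.25, and the falls had a median size of 0.93 and reached 4.86. A difference of at least 1 on the log2(FPKM + 1) scale was seen for 61 of the genes that rose and 35 of those that fell. The median difference of all genes tested was 0.045, so the values below stand almost unshifted against the rest of the transcriptome. Over all genes tested, 56.3% lay above 0 and 20% had an unadjusted p below 0.05, and the counts given for lists below stand against these shares. In the bulk RNA used here, more cells of a type and more RNA per cell cannot be told apart. The number of calls depended on every library, as leaving out a WT MI library left 5 to 11 rises and 5 to 9 falls, and leaving out a KO-labelled library left 3 to 8 rises and 5 to 7 falls. In each of these fits the remaining library was assumed to vary like the other groups. As the libraries of all 184 called genes did not overlap between the groups, leaving out a library could not turn their direction. All 184 genes kept their direction in every alternative that tested them, and 5 kept their call in all of them, namely Lcn2, Lrg1, Serpina3n, Sprr2a1 and Sprr2a2.

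**Figure D1:**
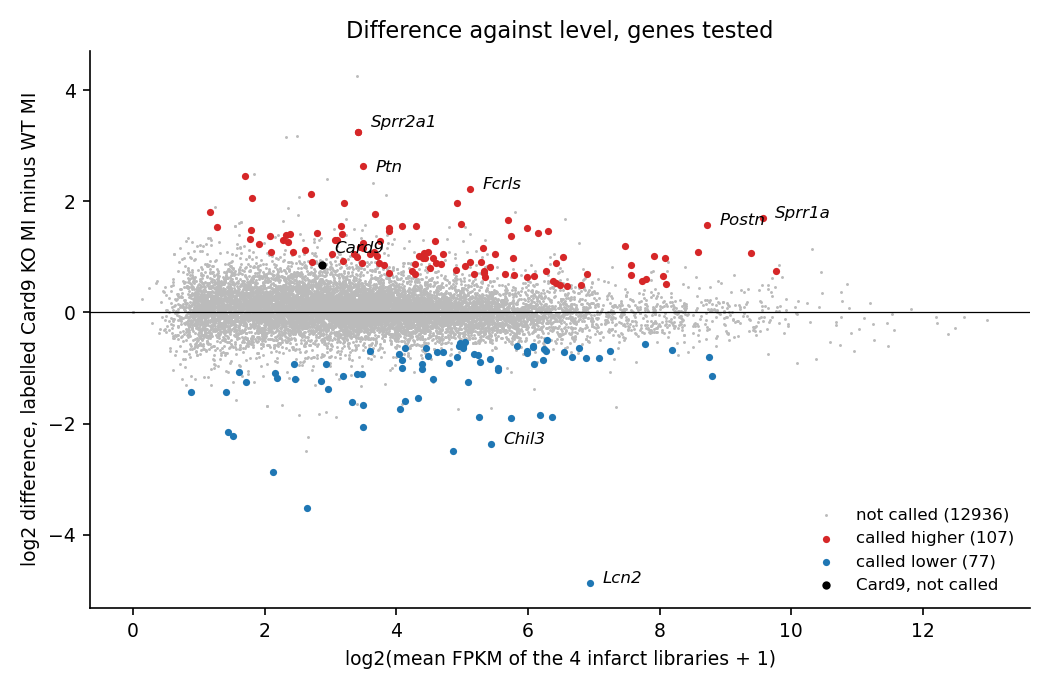
Log2 difference between the KO-labelled libraries and WT MI (y axis) against the level of each gene, log2(mean FPKM of the 4 infarct libraries + 1) (x axis), for the 13120 genes tested. The 107 red genes rose and the 77 blue genes fell; Lcn2 lies furthest below 0, the Sprr2a pair is the highest point called, and Card9, in black, lies above 0 without a call.

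The share of calls near the Card9 locus was close to that of the rest of the genome. Within 10 Mb of Card9 on chromosome 2, 217 genes were tested, and 1 rose and 2 fell, a share of 1.38% against 1.41% of all genes with a position. Col5a1, a fibrillar collagen chain, rose and lies 1.53 Mb from the start of Card9 (mm9 chr2:27741945-27895034, plus strand). Lcn2 lies 6.03 Mb away (mm9 chr2:32240153-32243317, minus strand) and Gsn, which encodes the actin-severing protein gelsolin, lies 8.90 Mb away (mm9 chr2:35111927-35163420, plus strand). Both fell, Gsn from 267 and 255 FPKM in WT MI to 166 and 185 FPKM (-0.57 ± 0.09, limma adjusted p = 0.0388). On the whole of chromosome 2, 5 of 1016 genes rose and 5 fell.

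Some of the calls rest on very few fragments or on sequence that a second gene shares. The small nucleolar RNAs Snord123 and Snora70 were listed at 0 in both WT MI libraries and at 4.39 and 4.57 (Snord123) and 2.45 and 2.56 (Snora70) FPKM in the KO-labelled ones, and the microRNA gene Mir1966 was listed at 3.37 and 3.47 FPKM in WT MI and at 0 in the others. At their lengths of 88, 129 and 108 bases these values amount to about 1.65 and 1.66 estimated fragments in each KO-labelled library for Snord123, 1.36 for Snora70, and 1.46 and 1.47 in each WT MI library for Mir1966. All lie under 3 fragments, so no fold is given and none of the 3 is read as a difference, although limma called them. The short RNA Rn4.5s, also called higher, amounted to 1.22 to 4.89 estimated fragments in the infarct libraries. Gm3776, H2-Q9 and Gm7334 were listed at 0 in both KO-labelled libraries and at 11.3 and 9.56 (Gm3776), 4.16 and 9.37 (H2-Q9) and 4.48 and 2.92 (Gm7334) FPKM in WT MI. They belong to the glutathione S-transferase alpha genes, the class I H2-Q genes and the predicted pseudogenes, where near-identical copies can exchange reads, so their values are uncertain. The same holds for Plac9a and Plac9b, paired copies of one small secreted protein gene that fell together, from 52.2 and 43.5 to 5.66 and 10.3 FPKM for Plac9a and from 33.99 and 17.2 to 8.09 and 6.65 FPKM for Plac9b.

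The largest rise was in the small proline-rich proteins, which are cross-linked into the cornified envelope of skin and are also made by stressed cardiomyocytes. Sprr2a1 and Sprr2a2 were listed with the same values in every library, 0.93 and 1.14 FPKM in WT MI and 18.3 and 18.5 FPKM in the KO-labelled libraries, with 0.31 and 0 FPKM in WT sham. The files therefore do not separate these genes, and they count as 1 signal here. RefSeq (GRCm38.p6) gives both genes the same 300 of 300 bases from 250 before to 50 after the start site. The 250 bases before the start site of Sprr2a1 are printed to show the sequence that both copies share (chr3:92215585-92215834, plus strand, written 5′ to 3′, no part marked):
Sprr2a1: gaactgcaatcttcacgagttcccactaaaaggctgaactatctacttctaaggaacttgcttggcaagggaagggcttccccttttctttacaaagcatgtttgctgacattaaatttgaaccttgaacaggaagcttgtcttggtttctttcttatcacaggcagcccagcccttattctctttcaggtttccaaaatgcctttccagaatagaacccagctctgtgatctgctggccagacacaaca
The difference was 3.25 ± 0.20 (limma adjusted p = 0.00165), a 17.8-fold difference of the group means. Sprr1a, which was already abundant in WT MI at 306 and 413 FPKM, reached 1218 and 1098 FPKM (1.70 ± 0.18, limma adjusted p = 0.0123), against 4.03 and 5.88 FPKM in WT sham. Sprr2g, a further member, went the other way, from 3.55 and 3.66 to 1.11 and 0.77 FPKM. Of the 16 genes of this family, 6 were listed and 4 passed the filter on low values. With the identical pair counted once these were 3 signals, of which 2 rose and 1 fell. For Sprr2a1, Sprr1a and Sprr2g the libraries of the groups were far apart relative to their spread within a group.

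Ptn, which encodes the heparin-binding growth factor pleiotrophin, was listed at 1.14 and 3.41 FPKM in WT MI and at 18.9 and 17.4 FPKM in the KO-labelled libraries (2.64 ± 0.33, limma adjusted p = 0.0191; mm9 chr6:36665663-36761361, minus strand). The WT MI libraries differed from each other, WT sham was at 0.59 and 0.25 FPKM, and both KO-labelled libraries lay well above all 4. Among the 9 tested genes of pleiotrophin, midkine and their receptors Ptn was the only call. Krt18, a keratin of simple epithelia, was listed at 1.78 and 1.1 FPKM in WT MI and 9.87 and 9.41 FPKM in the KO-labelled libraries (2.14 ± 0.26, limma adjusted p = 0.0176). It was the only call among 5 tested markers of epicardium and mesothelium, whose median difference was -0.24 and moved between -0.54 and 0.06 with the WT MI library left out. Casq1, the calsequestrin of skeletal muscle that binds calcium in the sarcoplasmic reticulum, was at 3.44 and 2.17 FPKM in WT MI and 11.8 and 15.7 FPKM in the KO-labelled libraries, with 7.44 and 6.17 FPKM in WT sham. Its WT MI libraries thus lay below all the others.

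A further 4 genes among the 16 largest rises belong to neither matrix nor antigen presentation. Serpinb1a, an inhibitor of neutrophil serine proteases, was at 16.6 and 13.1 FPKM in WT MI and 45.9 and 47.2 FPKM in the KO-labelled libraries (1.59 ± 0.16, limma adjusted p = 0.00945). The uncharacterised gene 2210407C18Rik was at 12.9 and 10.1 FPKM in WT MI, 46.99 and 47.8 FPKM in the KO-labelled libraries and 8.46 and 11.1 FPKM in WT sham (1.96 ± 0.16, limma adjusted p = 0.00594). Here WT MI and WT sham overlapped and only the KO-labelled libraries stood apart. Ms4a4c, a membrane protein gene of monocytes and macrophages, was at 4.5 and 4.69 FPKM in WT MI and 12.9 and 25.03 FPKM in the KO-labelled libraries, and its 2 KO-labelled libraries differed from each other but both lay above WT MI. Cd72, a receptor of B cells and macrophages, was at 7.38 and 7.94 FPKM in WT MI and 24.6 and 24.2 FPKM in the KO-labelled libraries (3.19-fold). The B cell markers had no call among 3 tested and none at an unadjusted p below 0.05.

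**Figure D2:**
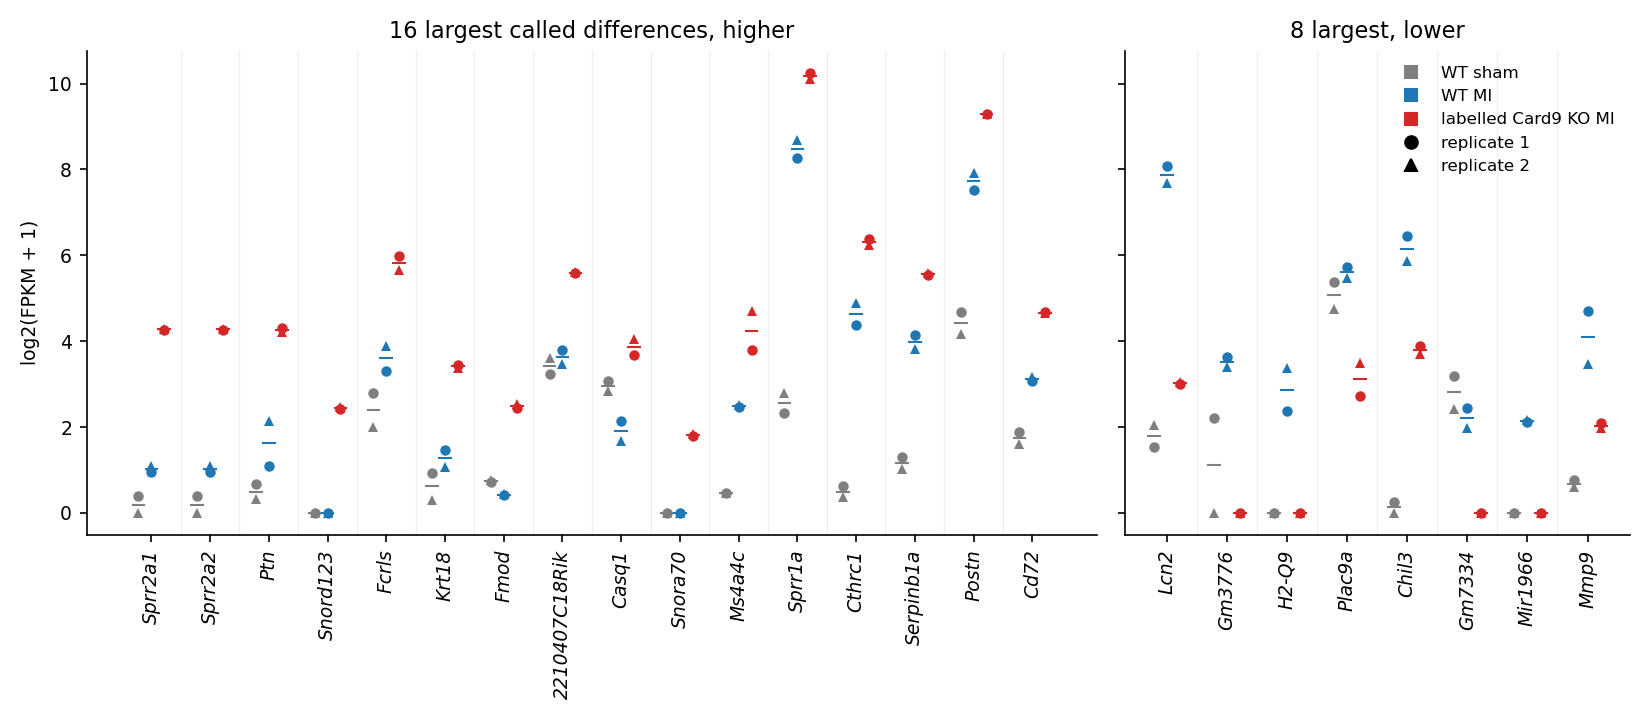
Level of the 16 genes with the largest called rise and the 8 with the largest called fall, as log2(FPKM + 1) in each of the 6 libraries (circles, replicate 1; triangles, replicate 2; short lines, group means). Sprr2a1 and Sprr2a2 carry identical values, and Snord123, Snora70 and Mir1966 sit at 0 in one infarct group and at about 1 to 2 estimated fragments per library in the other.

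Genes of matrix-producing fibroblasts and of the matrix itself held more rises than any other list. Of 17 markers of activated fibroblasts 9 rose and none fell, with a median difference of 0.80, and 16 had libraries that did not overlap on the higher side (30.8% of all genes did). Postn, which encodes the matricellular protein periostin, was at 184 and 241 FPKM in WT MI and at 626 and 627 FPKM in the KO-labelled libraries, after 24.6 and 16.9 FPKM in WT sham (1.57 ± 0.18, limma adjusted p = 0.0161; mm9 chr3:54165031-54194961, plus strand). Cthrc1, a secreted protein of collagen-producing fibroblasts, went from 19.8 and 28.8 to 81.7 and 74.2 FPKM (3.21-fold, limma adjusted p = 0.0152). Both KO-labelled libraries lay above both WT MI libraries by far more than the libraries of a group differed. Thbs4, a thrombospondin of stressed heart and tendon, and Ddah1, which breaks down methylated arginines, were at 29.99 and 26.7 (Thbs4) and 21.5 and 20.6 (Ddah1) FPKM in these libraries against 10.4 and 7.81 (Thbs4) and 6.48 and 6.8 (Ddah1) FPKM in WT MI. General fibroblast markers moved less, with 1 rise and 1 fall among 13 and a median of 0.34, which was 0.22 without replicate 1 and 0.54 without replicate 2 of WT MI. Thy1, a surface protein of fibroblasts and T cells, rose from 21.5 and 26.04 to 57.4 and 50.7 FPKM, while Gsn fell as given above, and the summed FPKM of this list was 854.8 and 966.7 in WT MI against 886.6 and 927.0 in the KO-labelled libraries. The matching sum for activated fibroblasts was 1020 and 1041 against 2131 and 1968. The part of the number of such cells in these rises was not tested.

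A set of 5 called genes known from smooth muscle and myofibroblasts was picked after their values were seen and stands as an example, not as a tested group. Tagln and Acta2 among them belong to the 9 activated fibroblast genes. Tagln, which encodes the actin-binding protein transgelin, was at 37.6 and 44.6 FPKM in WT MI and 125 and 106 FPKM in the KO-labelled libraries (1.47 ± 0.13, limma adjusted p = 0.00675). Myl9, the regulatory light chain of smooth muscle myosin, was at 33.9 and 29.8 against 94.2 and 91.5 FPKM. Acta2, smooth muscle alpha-actin, was at 117 and 97.2 against 252 and 239 FPKM, with 34.8 and 54.2 FPKM in WT sham. Actg2, the gamma-actin of visceral smooth muscle, and Csrp2, a LIM protein of smooth muscle, also rose, to 4.15 and 3.66 (Actg2) and 123 and 121 (Csrp2) FPKM from 0.93 and 0.98 (Actg2) and 59.8 and 62.4 (Csrp2) FPKM. The markers of pericytes and smooth muscle, a list fixed apart from these 5 genes, had no call among 10 tested and 5 at an unadjusted p below 0.05. Their median of 0.35 was 0.18 without replicate 2 of WT MI. Rgs5, the most abundant member and a marker of pericytes, was at 81.2 and 78.3 FPKM in WT MI and 79.5 and 89.7 FPKM in the KO-labelled libraries, so its libraries overlapped. Mcam, an adhesion molecule, was at 76.03 and 56.1 against 90.5 and 77 FPKM and Smtn, which encodes smoothelin, at 61.9 and 62.8 against 71.98 and 71.3 FPKM. Among members named after their values were seen, Abcc9, a subunit of a vascular potassium channel, lay lower at 44.5 and 49.2 against 31.7 and 36.8 FPKM, and the contractile genes Myh11 and Cnn1 had differences of 0.70 and 1.00 without a call.

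The extracellular matrix lists share members with the activated fibroblast markers, so their counts are not independent. Of the genes that rose, 4 of the 8 matricellular genes, 1 of the 12 collagen chains and 1 of the 5 elastic fibre genes also stand in the activated fibroblast list. Of 23 tested collagen chains 12 rose and none fell, all 23 lay above 0, and the median difference was 0.70. Col1a1 and Col1a2, the chains of type I collagen that gives the scar its strength, were at 359 and 516 (Col1a1) and 205 and 290.3 (Col1a2) FPKM in WT MI and at 932 and 870.3 (Col1a1) and 538 and 506 (Col1a2) FPKM in the KO-labelled libraries. Col12a1, a chain that decorates collagen fibrils, rose from 4.26 and 4.3 to 10.3 and 9.63 FPKM, and Col16a1 from 7.35 and 7.85 to 17.4 and 15.4 FPKM. In all 4 genes the libraries of a group differed by less than the groups did. Of 29 genes of collagen folding, processing and cross-linking 3 rose, Sparc, Fkbp10 and Loxl2, with a median of 0.36 for the list. Loxl2, a lysyl oxidase that cross-links collagen, was at 47.4 and 56.1 FPKM in WT MI and 85.8 and 78.96 FPKM in the KO-labelled libraries (0.66 ± 0.12, limma adjusted p = 0.0482).

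Among matricellular proteins and glycoproteins 8 of 29 rose and none fell, with a median of 0.42 that dropped to 0.22 without replicate 1 of the KO-labelled libraries. Thbs2, a thrombospondin that restrains vessel growth, rose from 5.03 and 6.32 to 15.6 and 14.1 FPKM. Elastic fibre and fibrillin genes had 5 rises and 1 fall among 15. Mfap4, an elastin-binding microfibril protein, rose from 33.1 and 42.5 to 99.3 and 105 FPKM (1.43 ± 0.15, limma adjusted p = 0.0115), Mfap2 rose to 12.4 and 13.2 FPKM and Ltbp2, which binds latent TGF-beta complexes to microfibrils, to 30.1 and 25.8 FPKM. Efemp1, which encodes fibulin-3, was the member that fell, from 5.47 and 5.12 to 1.48 and 2.14 FPKM. The proteoglycans split in the same way. Fmod, the small leucine-rich proteoglycan fibromodulin that organises collagen fibrils, was at 0.34 and 0.35 FPKM in WT MI, about the level of 3 fragments of a 2 kilobase transcript, at 0.66 and 0.69 FPKM in WT sham and at 4.45 and 4.8 FPKM in the KO-labelled libraries (2.06 ± 0.20, limma adjusted p = 0.0088). Aspn, which encodes asporin, rose from 25.8 and 31.6 to 70.2 and 82.5 FPKM. Prg4, the joint lubricant lubricin, fell from 115 and 53.2 to 21.8 and 19.01 FPKM, and its WT MI libraries differed more than 2-fold from each other.

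A few genes of secreted regulators rose. In the list of TGF-beta, activin and bone morphogenetic protein signalling 2 of 23 genes rose and none fell. Tgfb3, a TGF-beta ligand, was at 12.3 and 13.6 FPKM in WT MI and 34.5 and 31.6 FPKM in the KO-labelled libraries (1.29 ± 0.14, limma adjusted p = 0.0115), and Fstl1, a secreted glycoprotein of the follistatin family, went from 129 and 141 to 250.4 and 236 FPKM. The vascular growth factor list held 1 rise and 1 fall. Angptl4, a secreted inhibitor of lipoprotein lipase, rose from 29.7 and 31.8 to 48.3 and 48.8 FPKM, and Pgf, the placental growth factor that binds VEGF receptor 1, fell from 23.1 and 20.3 to 11.7 and 9.08 FPKM. In both genes the libraries of each group were close to each other. No gene was called among 11 Wnt ligands and secreted inhibitors (4 at an unadjusted p below 0.05), where Sfrp1 and Sfrp2, which bind Wnt proteins, were at 13.2 and 14.6 (Sfrp1) and 14.96 and 18.8 (Sfrp2) FPKM in WT MI and 27.03 and 22.2 (Sfrp1) and 23.2 and 25.6 (Sfrp2) FPKM in the KO-labelled libraries. Nor was any called among 15 genes of the insulin-like growth factor system (3 at an unadjusted p below 0.05, or the 20% seen over all genes). A pair of transcription factor genes of mesenchymal cells, named after their values were seen, rose: Sox9, from 2.72 and 2.98 to 7.44 and 7.29 FPKM, and Sox4, from 7.29 and 6.56 to 16.8 and 14.02 FPKM.

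**Figure D3:**
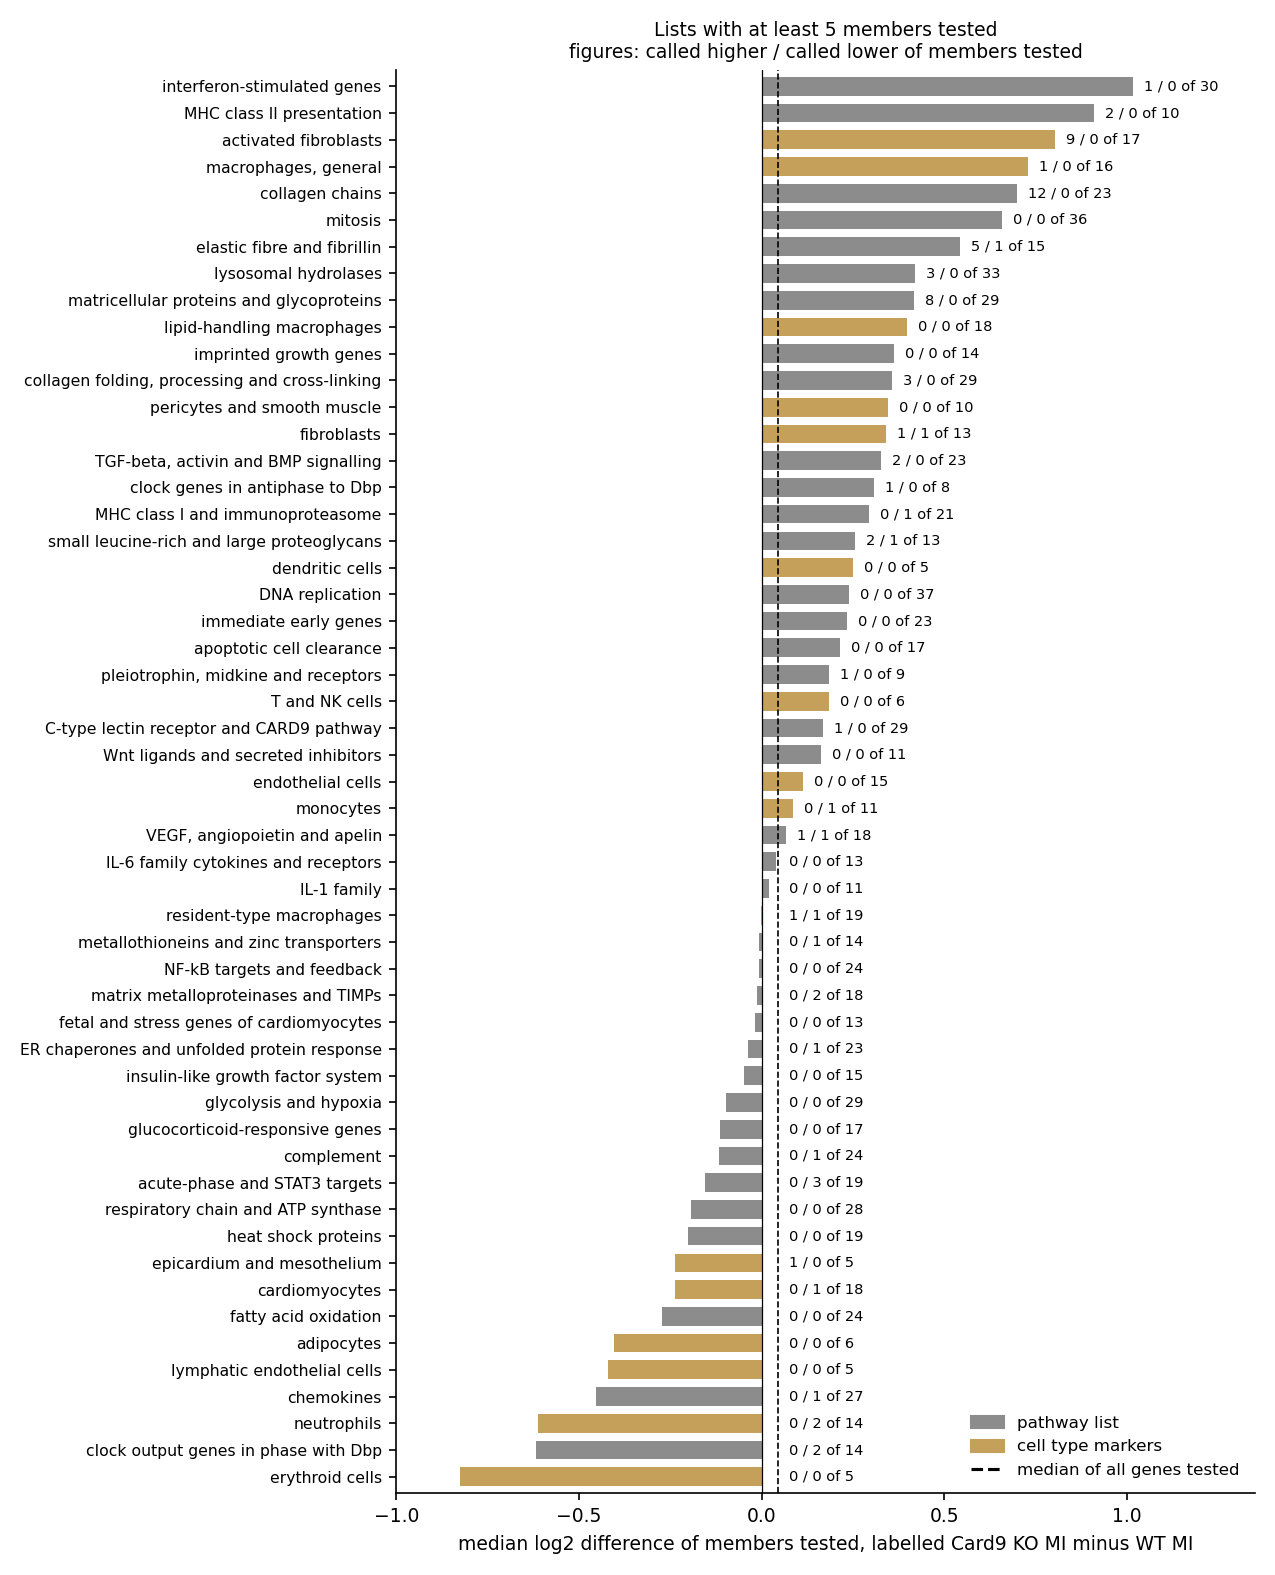
Median log2 difference of the tested members of each list with at least 5 of them (bars; grey, pathway lists; tan, cell type markers), with the numbers called higher and lower beside each bar and the median of all genes tested as a dashed line at 0.045. Collagen chains (12 of 23), activated fibroblasts (9 of 17) and matricellular proteins (8 of 29) held the most rises, while interferon-stimulated genes and mitosis had high medians with 1 call and none.

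Most macrophage markers lay above 0, but few passed the test. Of 16 general macrophage markers 1 rose, 15 lay above 0 and 10 had an unadjusted p below 0.05, with a median of 0.73 that was 0.48 without replicate 1 of the KO-labelled libraries. Cx3cr1, the fractalkine receptor of monocytes and macrophages, was at 6.08 and 8.18 FPKM in WT MI and 16.3 and 15.96 FPKM in the KO-labelled libraries (1.09 ± 0.16, limma adjusted p = 0.0337). Clec12a, an inhibitory C-type lectin receptor, was the only call among 29 genes of the C-type lectin receptor and CARD9 pathway, at 6.33 and 7.2 against 21.9 and 14.7 FPKM. Syk and Bcl10, which act before and after CARD9 in the pathway and are named after their values were seen, were not called. Syk was at 23.8 and 20.5 against 22.9 and 20.1 FPKM and Bcl10 at 11.98 and 10.7 against 14.03 and 14.5 FPKM (limma adjusted p = 0.91 and 0.337). Further myeloid genes that rose, also named after their values were seen, included Tlr7 and Tlr9, the endosomal receptors for single-stranded RNA and CpG DNA. They were at 5.11 and 5.45 (Tlr7) and 2.19 and 2.69 (Tlr9) FPKM in WT MI and 9.84 and 11.98 (Tlr7) and 5.85 and 6.71 (Tlr9) FPKM in the KO-labelled libraries. Pld4, an endolysosomal exonuclease that degrades the ligands of these receptors, rose from 21.3 and 24.8 to 50.6 and 38.3 FPKM, and Pik3ap1, an adaptor between Toll-like receptors and PI3 kinase, from 8.76 and 7.85 to 15.3 and 17.3 FPKM. Cybb, the catalytic subunit of the phagocyte NADPH oxidase, was at 11.9 and 13.7 against 24.9 and 23.4 FPKM.

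The markers of resident-type macrophages did not move together. Fcrls, an Fc receptor-like gene of tissue macrophages and microglia, rose from 8.95 and 13.8 FPKM in WT MI to 62.8 and 49.5 FPKM in the KO-labelled libraries (2.23 ± 0.29, limma adjusted p = 0.0213; mm9 chr3:87054680-87067660, minus strand). Lyve1, the hyaluronan receptor of lymphatic vessels and of perivascular resident macrophages, fell from 12.6 and 14.4 to 4.7 and 6.84 FPKM (-1.11 ± 0.18, limma adjusted p = 0.0367). In neither gene did the libraries of the groups overlap. Of the 19 tested markers of the list, 9 lay above 0 and 10 below, and the median was -0.003 (-0.27 to 0.07 with 1 infarct library left out). Cd163 and Mgl2, a scavenger receptor and a lectin of such cells that are named after their values were seen, had differences of -1.03 and -0.76 without a call. Chil3, the chitinase-like protein Ym1 of monocytes and alternatively activated macrophages, fell from 86.5 and 57.2 to 13.7 and 12.1 FPKM (-2.36 ± 0.21, limma adjusted p = 0.00729). It was the only call among 11 tested monocyte markers, of which 6 lay above 0 and 5 below, with a median of 0.09. Arg1, the arginase of alternatively activated macrophages that is named after its values were seen, also fell, from 90.3 and 86.3 to 47.4 and 44.3 FPKM.

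Most genes of class II antigen presentation and of the lysosome lay above 0, and few passed the test. All 10 tested genes of MHC class II presentation lay above 0, 9 did not overlap, 2 rose and the median was 0.91. H2-Eb1, a class II beta chain, was at 25.4 and 30.9 FPKM in WT MI and 70.01 and 50.4 FPKM in the KO-labelled libraries (1.06 ± 0.19, limma adjusted p = 0.0472), and Cd74, the invariant chain, was at 183 and 179 against 413 and 308 FPKM (0.98 ± 0.18, limma adjusted p = 0.0482). In both genes WT MI and WT sham, at 34.8 and 27.6 (H2-Eb1) and 222 and 164 (Cd74) FPKM, lay in one range and the KO-labelled libraries above it. Replicate 1 exceeded replicate 2 within the KO-labelled libraries in 9 of the 10 genes, as it did in 15 of 16 general macrophage markers, whose part in these differences was not tested. The MHC class I and immunoproteasome list had no rise and 1 fall among 21, of H2-Q9, whose values are uncertain as given above. Of the 21 genes 18 lay above 0 and 10 had an unadjusted p below 0.05, with a median of 0.29. Of 33 lysosomal genes 3 rose, Npc2 and Grn among them, and 30 lay above 0. Npc2, which carries cholesterol out of the lysosome, was at 36.4 and 38.5 FPKM in WT MI and 65.5 and 57.3 FPKM in the KO-labelled libraries (0.69 ± 0.11, limma adjusted p = 0.0365), and Grn, which encodes progranulin, was at 129.6 and 158 against 249 and 213 FPKM. In both genes the libraries of the groups did not overlap. Markers of lipid-handling macrophages had no call among 18 (11 at an unadjusted p below 0.05), but 16 lay above 0 and the median was 0.40. The 3 most abundant members of this list differed in direction. Apoe, an apolipoprotein secreted by macrophages, was at 606 and 673 against 1324 and 996 FPKM (adjusted p = 0.0566, limma). Lpl, the lipoprotein lipase, was at 1087 and 1047 against 756 and 908 FPKM, with both KO-labelled libraries below WT MI (-0.36 ± 0.11), and Ctsd, a lysosomal protease, was at 905 and 1126 against 1276 and 1075 FPKM, with libraries that overlapped. Cd36, a fatty acid carrier named after its values were seen, lay lower at 404 and 375 against 246 and 294 FPKM. Lpl and Cd36 were the only 2 members of the list below 0.

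Interferon-stimulated genes had a median of 1.02, above that of every list but the small proline-rich proteins, with a single call. All 30 tested members lay above 0, 25 had libraries that did not overlap and 22 had an unadjusted p below 0.05. Oas1a, an oligoadenylate synthetase that senses double-stranded RNA, was the member called, at 7.23 and 6.21 FPKM in WT MI and 15.5 and 26.2 FPKM in the KO-labelled libraries (1.46 ± 0.24, limma adjusted p = 0.0422; mm9 chr5:121346265-121357536, minus strand). The KO-labelled libraries differed from each other here. The median member lay 0.46 above the WT MI mean in replicate 1 and 1.56 above it in replicate 2, and 29 of 30 members were higher in replicate 2. Named after their values were seen, Ifit3, a restriction factor for viral RNA, was at 12.98 and 20.3 against 26.6 and 74.5 FPKM, Isg15, a ubiquitin-like modifier, at 13.6 and 17.3 against 20.5 and 73.3 FPKM, and Irf7, the transcription factor that drives interferon alpha genes, at 21.5 and 27.02 against 32.9 and 73.1 FPKM. In each of them replicate 2 of the KO-labelled libraries was the highest library by at least 2-fold. Without this library the median of the list was 0.46, and without replicate 1 it was 1.56. The general macrophage and class II genes ran the other way between these libraries, as given above.

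The interferon-stimulated response element (ISRE) is a short DNA element found in the promoters of many genes that interferons induce. Its core, a GAAA and a second GAAA separated by any 2 bases, searched on both strands in the 250 bases before each RefSeq start site (GRCm38.p6), was present for 12 of the 23 list members that have a promoter in the reference (52.2%) and for 936 of all 27025 genes with one (3.46%). Shown are the called member and 2 uncalled members that hold several matches, 5′ to 3′ in the direction of the gene, with matches in capitals and overlapping matches merged. Oas1a lies at chr5:120907526-120907775 on the minus strand, Ifit3 at chr19:34583279-34583528 on the plus strand and Isg15 at chr4:156200819-156201068 on the minus strand:
Oas1a: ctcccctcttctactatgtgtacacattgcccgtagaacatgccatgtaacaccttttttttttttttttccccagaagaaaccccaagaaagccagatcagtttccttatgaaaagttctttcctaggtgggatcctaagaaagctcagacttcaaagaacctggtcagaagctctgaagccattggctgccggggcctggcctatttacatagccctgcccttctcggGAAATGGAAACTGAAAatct
Ifit3: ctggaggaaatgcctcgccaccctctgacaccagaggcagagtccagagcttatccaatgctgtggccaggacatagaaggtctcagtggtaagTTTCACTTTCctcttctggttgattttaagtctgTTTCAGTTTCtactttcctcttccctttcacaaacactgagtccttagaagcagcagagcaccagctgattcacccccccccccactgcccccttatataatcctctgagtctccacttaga
Isg15: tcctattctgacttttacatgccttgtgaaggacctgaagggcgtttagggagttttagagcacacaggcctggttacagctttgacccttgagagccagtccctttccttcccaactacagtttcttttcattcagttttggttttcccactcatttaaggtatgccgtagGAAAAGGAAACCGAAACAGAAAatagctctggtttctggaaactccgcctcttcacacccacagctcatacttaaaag
The first match began 20 bases before the start site in Oas1a, 156 in Ifit3 and 78 in Isg15, and Isg15 held 3 overlapping matches. A match describes the letters in this window and is not a measurement of binding. A few genes of interferon-inducible GTPases outside the list rose too, named after their values were seen: Iigp1, at 11.2 and 14.3 FPKM in WT MI, 24.6 and 31.2 FPKM in the KO-labelled libraries and 24.97 and 30.2 FPKM in WT sham, and Tgtp1, at 1.07 and 1.6 FPKM in WT MI, 6.2 and 4.08 FPKM in the KO-labelled libraries and 3.69 and 3.79 FPKM in WT sham. In both genes WT MI lay below WT sham and the KO-labelled libraries lay above WT MI. Both belong to families of close relatives that can share reads, so their values are uncertain.

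All tested genes of mitosis lay above 0, without a single call. The list had 36 members, with a median of 0.66, 34 had libraries that did not overlap on the higher side and 27 had an unadjusted p below 0.05, yet none passed the limma test over all genes. Ccna2, which encodes cyclin A2, was at 14.4 and 17.1 FPKM in WT MI and 30.5 and 22.9 FPKM in the KO-labelled libraries (adjusted p = 0.0939, limma), after 1.67 and 1.39 FPKM in WT sham. Cenpa, the histone variant of the centromere, was at 14.2 and 16.5 against 27.01 and 21.01 FPKM, and Ube2c, an E2 enzyme of the anaphase-promoting complex, at 19.6 and 31.7 against 38.01 and 36.7 FPKM. In all 3 genes both KO-labelled libraries exceeded both WT MI libraries. Genes of DNA replication moved less, with 35 of 37 above 0, a median of 0.24 (0.14 without replicate 1 of the KO-labelled libraries), no call and 5 at an unadjusted p below 0.05. Pcna, the sliding clamp of DNA polymerase, was at 59.1 and 56.1 against 80.9 and 68.2 FPKM. Smc4, a condensin subunit outside both lists that was named after its values were seen, rose from 13.6 and 14.1 to 23.5 and 22.6 FPKM (0.69 ± 0.12, limma adjusted p = 0.0472). Within the KO-labelled libraries replicate 1 was higher in 34 of the 36 mitosis genes. Macrophages and fibroblasts both divide in an infarct, and which cells carried these transcripts was not tested.

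**Figure D4:**
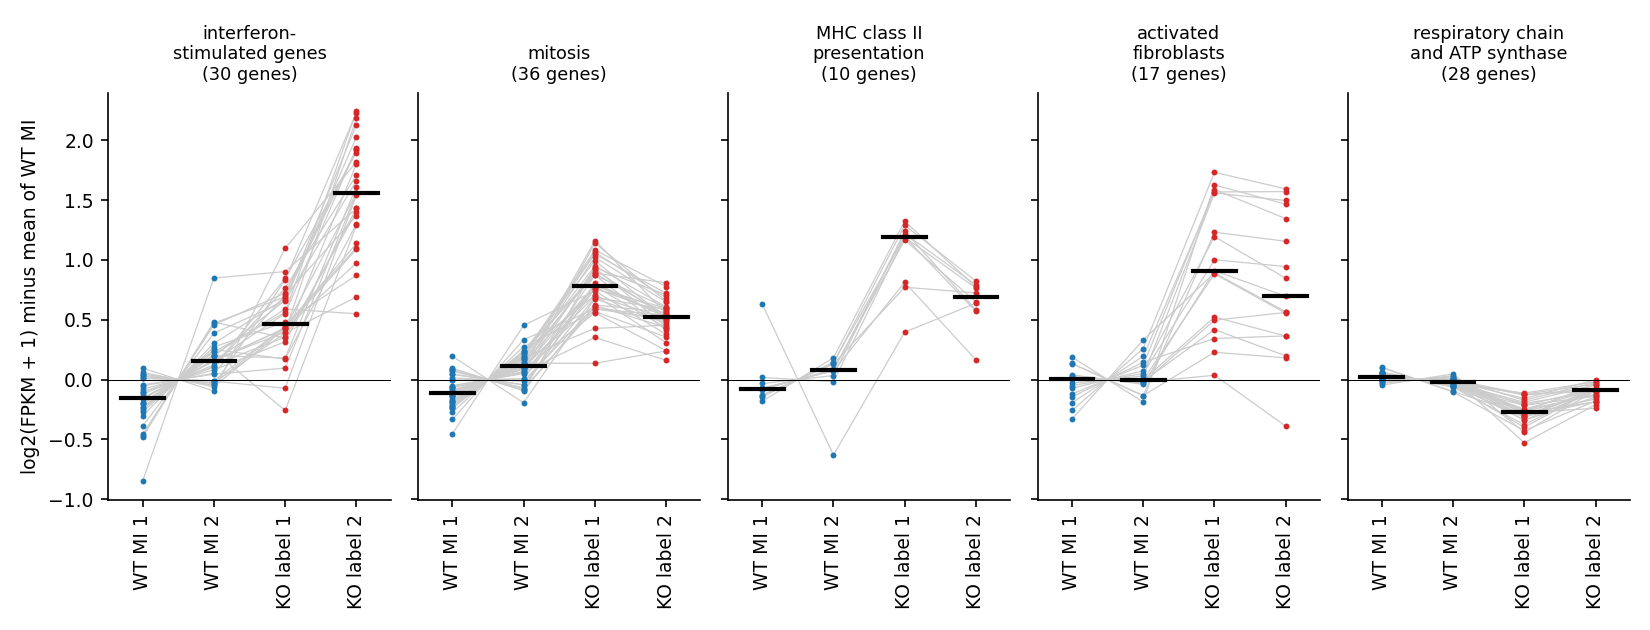
Members of 5 lists in the 4 infarct libraries, as log2(FPKM + 1) minus the mean of the 2 WT MI libraries (y axis; points, genes; thin lines join a gene; thick lines, medians). Interferon-stimulated genes lie highest in replicate 2 of the KO-labelled libraries (median 1.56, against 0.46 in replicate 1), mitosis and class II genes highest in replicate 1, and respiratory chain genes lie below 0 in both.

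Imprinted genes that act on growth lay above 0 in 14 of 14 tested members, with a median of 0.36 (0.23 without replicate 1 of the KO-labelled libraries), no call and 6 at an unadjusted p below 0.05. H19, the abundant long noncoding RNA of the Igf2 locus, was at 55.1 and 46.4 FPKM in WT MI and 74.6 and 59.1 FPKM in the KO-labelled libraries (adjusted p = 0.239, limma), against 20.1 and 15.8 FPKM in WT sham. Mest, a hydrolase-like gene expressed from the paternal allele that was named after its values were seen, was at 17.2 and 19.4 against 45.2 and 33.3 FPKM (adjusted p = 0.0616, limma). The immediate early genes, which respond within minutes to stimuli and to tissue handling, had no call among 23, a median of 0.23 and 9 at an unadjusted p below 0.05. Junb, one of them, was at 61.4 and 54.7 FPKM in WT MI and 71.1 and 59.2 FPKM in the KO-labelled libraries.

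The core clock genes leaned in opposite directions by phase. The circadian clock is a transcription loop in which BMAL1, the product of Arntl, and CLOCK activate E-box genes such as Dbp, whereas Arntl itself peaks in the opposite phase. Arntl was at 4.13 and 3.03 FPKM in WT MI and 12.7 and 11.9 FPKM in the KO-labelled libraries, with 12.6 and 15.8 FPKM in WT sham (1.55 ± 0.17, limma adjusted p = 0.0143; mm9 chr7:120350979-120457636, plus strand). Dbp, a PAR-domain transcription factor, was at 24.3 and 33.9 FPKM in WT MI, 10.4 and 8.11 FPKM in the KO-labelled libraries and 7.95 and 10.8 FPKM in WT sham (-1.54 ± 0.21, limma adjusted p = 0.0244). In both genes the WT MI libraries stood apart and the KO-labelled libraries lay at the sham level. All 14 tested genes in phase with Dbp lay below 0, with a median of -0.62 and 2 falls, of Dbp and of Usp2. Usp2, a ubiquitin protease under clock control, was at 35.7 and 35.05 FPKM in WT MI and 16.1 and 21.1 FPKM in the KO-labelled libraries. In WT sham it was at 33.97 and 34.19 FPKM. For Usp2, WT MI thus lay near the sham level and the KO-labelled libraries stood apart. Of 8 genes in antiphase 6 lay above 0 and Arntl rose. Npas2, which can stand in for CLOCK and is named after its values were seen, was at 1.17 and 1.57 against 3.14 and 4.13 FPKM (adjusted p = 0.0614, limma).

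The E-box CACGTG, which reads the same on both strands, was searched in the 250 bases before the start site of genes with a promoter in the reference. It was present for 5 of 12 in-phase genes (41.7%) and 1 of 7 antiphase genes (14.3%). The share was 1022 of 10336 genes tested (9.89%) and 1854 of all 27025 genes (6.86%). Neither Dbp nor Usp2, the in-phase genes that were called, was among the 5. The promoter of Tef, a relative of Dbp at 19.97 and 25.3 FPKM in WT MI and 13.1 and 11.7 FPKM in the KO-labelled libraries (adjusted p = 0.0529, limma), is shown as an example, 5′ to 3′, with the E-box in capitals 127 bases before the start site (RefSeq GRCm38.p6, chr15:81802423-81802672, plus strand):
Tef: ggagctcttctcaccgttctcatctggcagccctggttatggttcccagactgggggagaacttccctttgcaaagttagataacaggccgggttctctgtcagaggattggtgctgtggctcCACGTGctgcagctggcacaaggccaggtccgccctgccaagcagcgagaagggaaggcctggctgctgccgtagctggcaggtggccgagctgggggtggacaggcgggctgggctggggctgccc
The labels do not give the hour at which the hearts were taken.

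**Figure D5:**
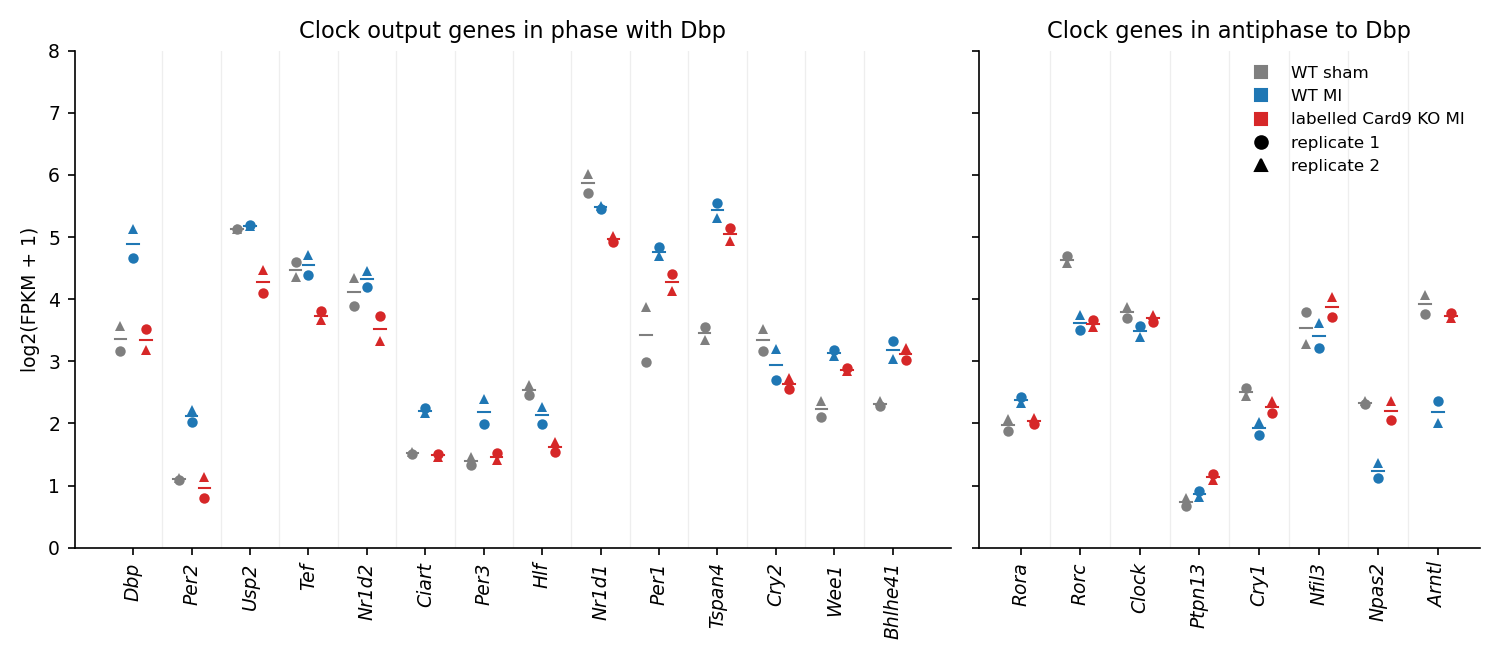
Level of the 14 tested clock output genes in phase with Dbp (left) and the 8 in antiphase (right) in each of the 6 libraries, as log2(FPKM + 1) (circles, replicate 1; triangles, replicate 2; short lines, group means). For Dbp, Per2, Arntl and Npas2 the KO-labelled libraries (red) lie near WT sham (grey) and away from WT MI (blue). For Usp2 WT MI lies near WT sham and the KO-labelled libraries lie below both.

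Lcn2 belongs both to the acute-phase and to the neutrophil list. Beside it, 2 of 18 acute-phase and STAT3 target genes and 1 of 13 neutrophil markers fell, and none rose. Lrg1, a leucine-rich glycoprotein of neutrophil granules and of the acute phase, fell from 122 and 103 FPKM in WT MI to 32.8 and 28.5 FPKM in the KO-labelled libraries, the level of WT sham at 32.5 and 37.1 FPKM (-1.84 ± 0.13, limma adjusted p = 0.00253). Serpina3n, a secreted inhibitor of granzyme B and neutrophil proteases, fell from 116 and 141 to 32.5 and 35.7 FPKM (-1.88 ± 0.14, limma adjusted p = 0.0042). In both genes the difference was several times the spread between replicates. C3, the central complement component, fell from 42.1 and 51.7 to 18.4 and 19.5 FPKM and was the only call among 24 complement genes. Of these, 9 lay above 0, 15 below and 12 had an unadjusted p below 0.05. The summed FPKM of the complement list was higher in the KO-labelled libraries, at 3377 and 2952 against 1922 and 2282 in WT MI. The metallothionein Mt1, a zinc-binding protein, fell from 606 and 617 to 266 and 287 FPKM, below the 326 and 296 FPKM of WT sham, as 1 of 14 genes of its list. Of 14 neutrophil markers, Lcn2 included, 12 lay below 0. Mmp9, a gelatinase of neutrophil granules, was at 24.9 and 10.2 FPKM in WT MI and 3.26 and 2.94 FPKM in the KO-labelled libraries (-2.05 ± 0.35, limma adjusted p = 0.0451). Its WT MI libraries differed more than 2-fold, and the summed FPKM of the neutrophil list was 585.7 and 364.7 in WT MI against 138.8 and 123.2. Without Lcn2 it was 316.9 and 160.8 against 131.8 and 116.0, and its part in these falls was not tested. Mmp3, a stromelysin of fibroblasts, fell from 14 and 14.4 to 4.12 and 3.78 FPKM. Mmp9 and Mmp3 were the only 2 calls among 18 tested matrix metalloproteinases and their TIMP inhibitors. Of these 18 genes 9 lay above 0 and 9 below, with a median of -0.01.

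Of 27 chemokine genes 17 lay below 0, 1 fell and 12 had an unadjusted p below 0.05. Their median of -0.45 was -0.10 without replicate 2 of WT MI and -0.18 without replicate 2 of the KO-labelled libraries. Cxcl14, a chemokine of epithelia and fibroblasts, fell from 21.3 and 27.4 to 8.94 and 4.72 FPKM (-1.74 ± 0.26, limma adjusted p = 0.0327). Ccl2, which recruits monocytes and is an NF-kB target, was at 121 and 147 FPKM in WT MI and 81.8 and 78.1 FPKM in the KO-labelled libraries without a call (adjusted p = 0.157, limma). The NF-kB targets as a list stood near 0, with a median of -0.01, 11 of 24 above 0, no call and 5 at an unadjusted p below 0.05, about the 20% of all genes. The IL-1 family had no call among 11 and the IL-6 family none among 13, with 1 gene each at an unadjusted p below 0.05 and medians of 0.02 and 0.04 that changed sign with 1 infarct library left out. The markers of red blood cells, whose RNA reports retained blood, lay below 0 in 5 of 5 genes, with a summed FPKM of 2926 and 4586 in WT MI and of 2823 and 1445 in the KO-labelled libraries. None of the 5 was called and 1 had an unadjusted p below 0.05. Their median of -0.83 was -0.40 without replicate 2 and -1.26 without replicate 1 of the KO-labelled libraries.

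Most muscle and metabolic genes lay below 0, with 1 call. Of 18 cardiomyocyte markers 17 lay below 0 and 1 fell, with a median of -0.24 that was -0.135 without replicate 1 of the KO-labelled libraries. Tcap, the titin cap protein of the Z-disc, fell from 557 and 536 FPKM in WT MI to 306 and 320.1 FPKM in the KO-labelled libraries (-0.80 ± 0.11, limma adjusted p = 0.0213). The summed FPKM of these markers was 43940 and 45460 in WT MI against 36510 and 42140, and all 18 were higher in replicate 2 than in replicate 1 of the KO-labelled libraries. All 28 tested subunits of the respiratory chain and ATP synthase lay below 0 (median -0.19, no call, 6 at an unadjusted p below 0.05, about the share of all genes), as did 22 of 24 genes of fatty acid oxidation (median -0.27, no call, 15 at an unadjusted p below 0.05). Without replicate 1 of the KO-labelled libraries these medians were -0.09 and -0.14, and without replicate 2 they were -0.27 and -0.44. Single metabolic and channel genes that fell, named after their values were seen, included Bdh1, the mitochondrial enzyme of ketone body oxidation. It was at 57.7 and 60.6 FPKM in WT MI, 13.8 and 17.3 FPKM in the KO-labelled libraries and 98.9 and 68.8 FPKM in WT sham (-1.87 ± 0.18, limma adjusted p = 0.0088). Kcnq1, a repolarising potassium channel, fell from 32.8 and 30.1 to 17.03 and 20.6 FPKM, and Klhl40, a stabiliser of thin filament proteins, from 8.84 and 9.5 to 2.92 and 3.73 FPKM. Kcne1, the accessory subunit of the Kcnq1 channel, went the other way, from 1.64 and 2.08 to 7.17 and 6.1 FPKM (1.42 ± 0.19, limma adjusted p = 0.0213). In each of these 4 genes the libraries of the groups were separate.

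Several other cell types and pathways were measured without a call. Endothelial markers had no call among 15, a median of 0.11 (0.06 without replicate 1 of the KO-labelled libraries) and 5 at an unadjusted p below 0.05, with Pecam1 at 90.2 and 76.7 FPKM in WT MI and 92.7 and 99.7 FPKM in the KO-labelled libraries. Lymphatic endothelial markers lay below 0 in 5 of 5 genes with a median of -0.42 (-0.20 without replicate 2 of WT MI and -0.25 without replicate 2 of the KO-labelled libraries), and Flt4, the receptor for VEGF-C, was at 11.5 and 11.7 against 9.61 and 10.3 FPKM. T and NK cell markers (6 of 13 tested) and B cell markers (3 of 9 tested) had summed FPKM of at most 10.97 in any infarct library, with no call and none at an unadjusted p below 0.05 among those tested. Heat shock protein genes had 15 of 19 below 0 and no call (8 at an unadjusted p below 0.05). Genes of glycolysis and hypoxia, apoptotic cell clearance, glucocorticoid response and the fetal programme of cardiomyocytes had medians between -0.12 and 0.21 and no call. At an unadjusted p below 0.05 were 6 of 29, 8 of 17, 5 of 17 and 3 of 13 of them, against 20% of all genes.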

How the data were processed

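RNA was sequenced from 6 mouse heart libraries, which the sample labels put in 3 groups of 2 (sham-operated WT, infarcted WT and infarcted Card9 KO). The authors deposited FPKM values per gene and library, listing only values above 0; the submitters' processing notes name BWA, Bowtie2 and the mm9 build, with no roles given. Depth is an estimate, as only 66.3 to 69.0% of low values came out as whole fragments (tolerance 0.1), so no count test was run. Genes at 1 FPKM or more in at least 2 of the 6 libraries were kept. Values were tested as log2(FPKM + 1) in limma 3.58.1 (R 4.3.3) with the 3 groups in one fit, a variance trend and Benjamini-Hochberg adjustment over 13120 genes, called at an adjusted p below 0.05. On simulated data with 12816 genes, this test recovered 52 of 98 genes changed by 1 and 84 of 99 changed by 2 on the log2 scale, with 2 false calls. The simulated noise was drawn for each gene independently, whereas many genes shift together between the real libraries of a group. The simulated false calls therefore do not measure those among the real calls.

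Gene positions are on mm9, names come from RefSeq, and promoters from RefSeq on GRCm38.p6. The 58 gene lists, 20 of cell type markers and 38 of pathways, were chosen with earlier results of these data known, as were the members compared. Genes named are Card9 and Lcn2, the 16 largest called rises and 8 largest called falls, up to 4 called members of each list or up to 3 of its most abundant members where none was called, and called genes within 10 Mb of Card9. Genes outside this rule are marked as named after their values were seen, or stand as examples of a count or a motif. Alternatives covered the added constant, the filter, scaling, the model and each library left out.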

Additional observations from a re-analysis of the deposited data

How the results depend on the processing

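The counts of calls moved with the settings. The direction of all 184 called genes did not change in any alternative, but their libraries did not overlap between the groups. Leaving out a library or changing the added constant or the filter therefore could not turn it. Against 107 rises and 77 falls, an added 0.1 FPKM gave 47 and 33, an added 5 FPKM 200 and 112, no filter on low values 7 and 5, and a mean of at least 5 FPKM 148 and 136. A fit of the infarct groups alone gave 69 and 32, a fit without the variance trend 40 and 18, and genes listed in all 6 libraries 163 and 134. Calls with a difference of at least 1 on the log2(FPKM + 1) scale numbered 61 and 35. Upper-quartile scaling gave 86 and 66 and quantile normalization 117 and 108. Leaving out 1 library gave 3 to 63 rises and 5 to 33 falls. The replicate number as a block gave 45 and 26, but the numbers did not pair the samples, since deviations of same-numbered libraries correlated at -0.008 to 0.02. The cause of these shifts was not tested. Leaving out 1 library turned the sign of 2 uncalled genes near 0, Rgs5 (-0.004 to 0.167) and Syk (-0.145 to 0.0627). Card9 was not called in any alternative that tested it. With 2 libraries a group and 3910000 to 4290000 estimated fragments in each infarct library, levels under 3 fragments were not measurable, and the labels do not tie libraries to separate mice.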
